A study of Bos indicus with 5 samples.

Results

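Transcripts for the synthesis, breakdown and sensing of prostaglandins were examined in the ampulla of the oviduct, the wide section where fertilization takes place. The group was fixed as a list of 10 gene symbols, and rows of the normalized read table were taken where the symbol matched. Of the 10 symbols, 8 matched 1 row each, out of 24616 genes in the table, and all 8 were among the 15815 genes with a mean above 5 normalized reads that were tested. These were PTGS1, PTGES, PTGES3, PTGDS and PTGIS (synthesis), HPGD (breakdown), and PTGER2 and PTGER4 (receptors). PTGS2 and PTGFR were not matched by symbol and were not analysed here. Their Ensembl identifiers are ENSBTAG00000006716 (PTGS1), ENSBTAG00000019453 (PTGES), ENSBTAG00000017967 (PTGES3), ENSBTAG00000015074 (PTGDS), ENSBTAG00000017537 (PTGIS), ENSBTAG00000025942 (HPGD), ENSBTAG00000002163 (PTGER2) and ENSBTAG00000014972 (PTGER4). The genes were picked by symbol, with earlier results of these data known.

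The 5 libraries each came from a different multiparous Nelore (Bos indicus) cow, 2 of them in LF/LCL, which stands for a large follicle and large corpus luteum, against 3 in SF/SCL, where both structures were small. All cows were presynchronized with buserelin acetate, a GnRH agonist, and sodium cloprostenol, an analog of prostaglandin F. All then received on day -10 an intravaginal progesterone device and 2 mg of estradiol benzoate, cloprostenol at device removal and again 6 h later, and GnRH agonist on day 0 to induce ovulation. The LF/LCL cows received a further cloprostenol injection on day -10, and their device was removed 42 h before GnRH, against 30 h in SF/SCL. Tissue through the whole wall of the oviduct, on the side of the corpus luteum, was collected on day 4. The cows sequenced were the highest ranked of LF/LCL and the lowest ranked of SF/SCL for follicle size, estradiol, corpus luteum area and progesterone, so the groups are extremes of the treated animals. Because every cow received a prostaglandin F analog, no library represents tissue without that exposure.

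Prostaglandins are made from arachidonic acid that phospholipases release from membranes. The cyclooxygenases PTGS1 and PTGS2 convert it to prostaglandin H, and a terminal synthase then makes each final prostaglandin. HPGD, which oxidizes prostaglandins E and F to inactive forms, ends the signal after uptake into the cell, and the receptors PTGER2 and PTGER4 raise cyclic AMP when prostaglandin E binds. In the oviduct these lipids are known for acting on smooth muscle contraction and the transport of gametes and embryos.

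The largest difference among the 8 genes was in HPGD, whose mean was 8.73 times higher in SF/SCL than in LF/LCL. The receptors PTGER2 and PTGER4 differed in opposite directions between the groups, by smaller amounts. Of the synthesis genes, PTGES and PTGDS had an SD above the difference of the group means in both groups. The same held for PTGS1 only in SF/SCL, for PTGIS only in LF/LCL and for PTGES3 in neither. With limma on log2(normalized reads + 1) and Benjamini-Hochberg adjustment, 0 of the 8 genes had an adjusted p under 0.05, as was so for 0% of all genes tested, and adjusted p ran from 0.207 to 0.973. An unadjusted p under 0.05 was found for HPGD, lower in LF/LCL (against 5.86% of all genes in that direction), and for PTGER4, higher in LF/LCL (against 5.64%). The groups did not overlap in 3 genes that were lower in LF/LCL (HPGD, PTGER2 and PTGES3, or 37.5%, against 15.1% of all genes) and in 1 that was higher (PTGER4, or 12.5%, against 15%). The median log2 fold change of the 8 genes, LF/LCL over SF/SCL, was 0.10, beside 0.01 over all genes tested, and was -0.32 without LF/LCL replicate 1.

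**Figure D1:**
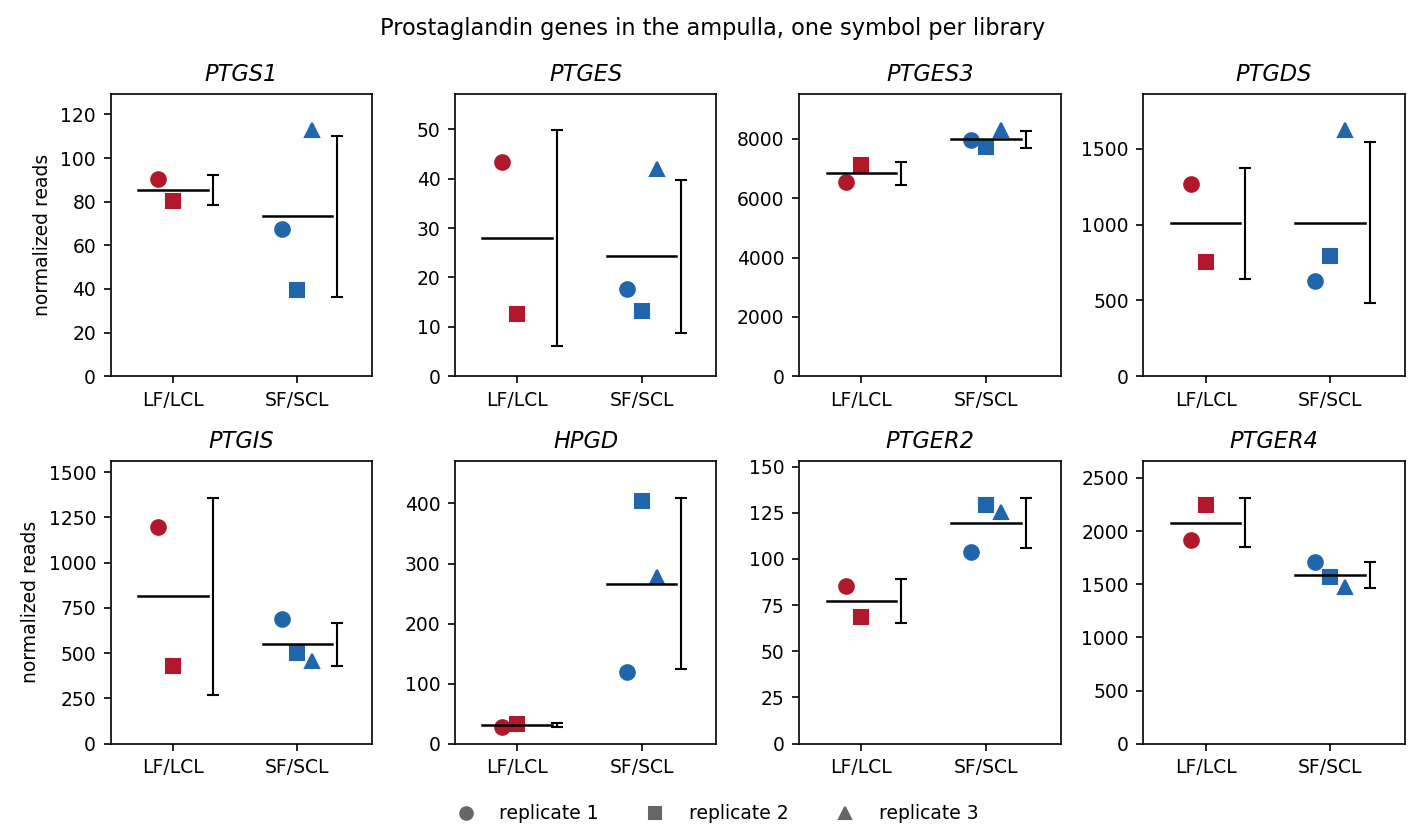
Normalized reads (y axis, linear from 0, scaled separately for each gene) of the 8 genes in each library, by group. Symbols are single libraries, horizontal lines are group means and the bars beside them are SD (n = 2 in LF/LCL, n = 3 in SF/SCL); the groups are apart in PTGES3, HPGD, PTGER2 and PTGER4 and overlap in the other 4 genes.

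Libraries held from 13418278 to 19592174 reads assigned to genes. Defining markers of the oviduct epithelium were read in all 5. OVGP1, the oviduct glycoprotein of secretory cells, had from 117179 to 147247 normalized reads, and FOXJ1, the transcription factor of ciliated cells, from 8481 to 12698, while PIFO, another marker on the ciliated list, was at 0 in 4 of the 5. Levels of muscle and cilia markers ran in opposite directions between the groups. Smooth muscle markers were higher in LF/LCL in 12 of 12 entries (median log2 fold change 1.22), and their summed level ran from 72277 to 135299 in LF/LCL and from 25907 to 51267 in SF/SCL. Ciliated markers were lower in LF/LCL in 9 of 9 tested entries (median -0.56). With limma 0 entries of either list had an adjusted p under 0.05 (lowest 0.302 for smooth muscle and 0.222 for ciliated). DESeq2 called 4 smooth muscle and 3 ciliated entries, where it called 1.38% of all genes higher and 1.5% lower in LF/LCL. Median log2 fold changes were 0.37 for stromal fibroblast, 0.45 for secretory, 0.27 for endothelial, 0.39 for immune, 0.72 for mast cell, 0.03 for platelet, -0.52 for mesothelial and 1.97 for red blood cell markers. In the mast cell, platelet and red blood cell lists no more than 2 entries were tested. In such whole-wall tissue, fewer cells of a type and less RNA per cell cannot be told apart.

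PTGS1, the constitutive cyclooxygenase, had 90.3 and 80.3 normalized reads in LF/LCL replicates 1 and 2, whereas SF/SCL replicates 1 to 3 had 67.6, 39.6 and 112.7. The LF/LCL libraries lay inside the range of SF/SCL. The means were 85.3 ± 7.05 (SD, n = 2) and 73.3 ± 36.9 (SD, n = 3), with a log2 fold change of 0.34 ± 0.47 (SE) and a limma adjusted p of 0.834. The 95% confidence interval of that difference, from -0.80 to 1.48, left room for a change of either sign.

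PTGES, the inducible prostaglandin E synthase of the membrane, had the fewest reads of the group. It had 43.4 and 12.6 normalized reads in LF/LCL, against 17.7, 13.2 and 41.9 in SF/SCL. LF/LCL replicate 1 and SF/SCL replicate 3 were high and the other 3 libraries low, whichever group they came from. These values rest on 13 to 39 reads, and the exact Poisson 95% intervals of the high libraries (lower bounds 30.6 and 29.8) did not reach those of the 3 low libraries (highest upper bound 28.3). Such intervals cover counting error only. Between the groups the log2 fold change was 0.13 ± 0.74 (SE), with a limma adjusted p of 0.970.

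PTGDS, the lipocalin-type prostaglandin D synthase, showed the same pair of high libraries. It had 1269 and 750.1 normalized reads in LF/LCL, against 624.9, 793.5 and 1622 in SF/SCL. The group means were nearly equal, 1010 ± 366.8 (SD, n = 2) and 1013 ± 533.5 (SD, n = 3), while the highest library stood at 2.60 times the lowest. The log2 fold change was 0.07 ± 0.45 (SE), with an interval from -1.03 to 1.17 and a limma adjusted p of 0.973.

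PTGIS, the prostacyclin synthase, had 1199 and 428.8 normalized reads in LF/LCL, against 686.2, 498.9 and 459.3 in SF/SCL. A single library, LF/LCL replicate 1, stood above all others, and the other LF/LCL library was the lowest of the 5. The log2 fold change of 0.41 ± 0.44 (SE, limma adjusted p 0.781) was 1.15 without LF/LCL replicate 2. It turned to -0.33 without LF/LCL replicate 1, so its positive sign rested on LF/LCL replicate 1.

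The spread of these 4 genes was wide beside other genes. Their residual SD on the log2 scale fell at percentiles from 83.0 (PTGS1) to 93.2 (PTGES) among all genes tested. These percentiles were not matched for read number, and counting error is larger in genes with few reads, such as PTGES. For PTGDS the coefficient of variation was 36.3% in LF/LCL and 52.6% in SF/SCL, where counting alone gives 3.28% and 3.09%. For PTGDS the spread between libraries of a group was therefore far above counting error. For PTGS1 the coefficient of variation was 8.26% in LF/LCL and 50.3% in SF/SCL, where counting alone gives 11.2% and 11.7%.

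PTGES and PTGDS were each highest in LF/LCL replicate 1 and SF/SCL replicate 3. PTGS1 was as well, but its order within LF/LCL was not beyond counting error. Its exact Poisson intervals overlapped between LF/LCL replicate 1 (77 reads, from 71.3 to 112.9) and LF/LCL replicate 2 (83 reads, from 64.0 to 99.6). The summed stromal fibroblast markers were also highest in LF/LCL replicate 1 and SF/SCL replicate 3, at 81386 and 47255 normalized reads. They were at 32652 in LF/LCL replicate 2, and at 38009 and 21342 in SF/SCL replicates 1 and 2. The summed endothelial markers likewise were highest in LF/LCL replicate 1 and SF/SCL replicate 3, at 7683 and 8363. The other 3 libraries had 4902 to 6277. Single entries of both lists were mixed. VWF was highest in the same libraries (1994 and 1901), but KDR had 2080 in LF/LCL replicate 1, below the 2699 to 3560 of SF/SCL. Among stromal entries FBLN1 was highest in the same libraries (8064 and 5578), but COL1A1 was higher in LF/LCL replicate 2 (4235) than in SF/SCL replicate 3 (3858). LF/LCL replicate 1, the library in which PTGIS was highest, also had the highest sum of smooth muscle markers, 135299, but LF/LCL replicate 2 had the next highest sum, 72277, and the lowest PTGIS. Of the 8 stromal and 7 endothelial entries none was at 0 in any library. The part of tissue makeup in the synthesis genes was not tested.

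**Figure D2:**
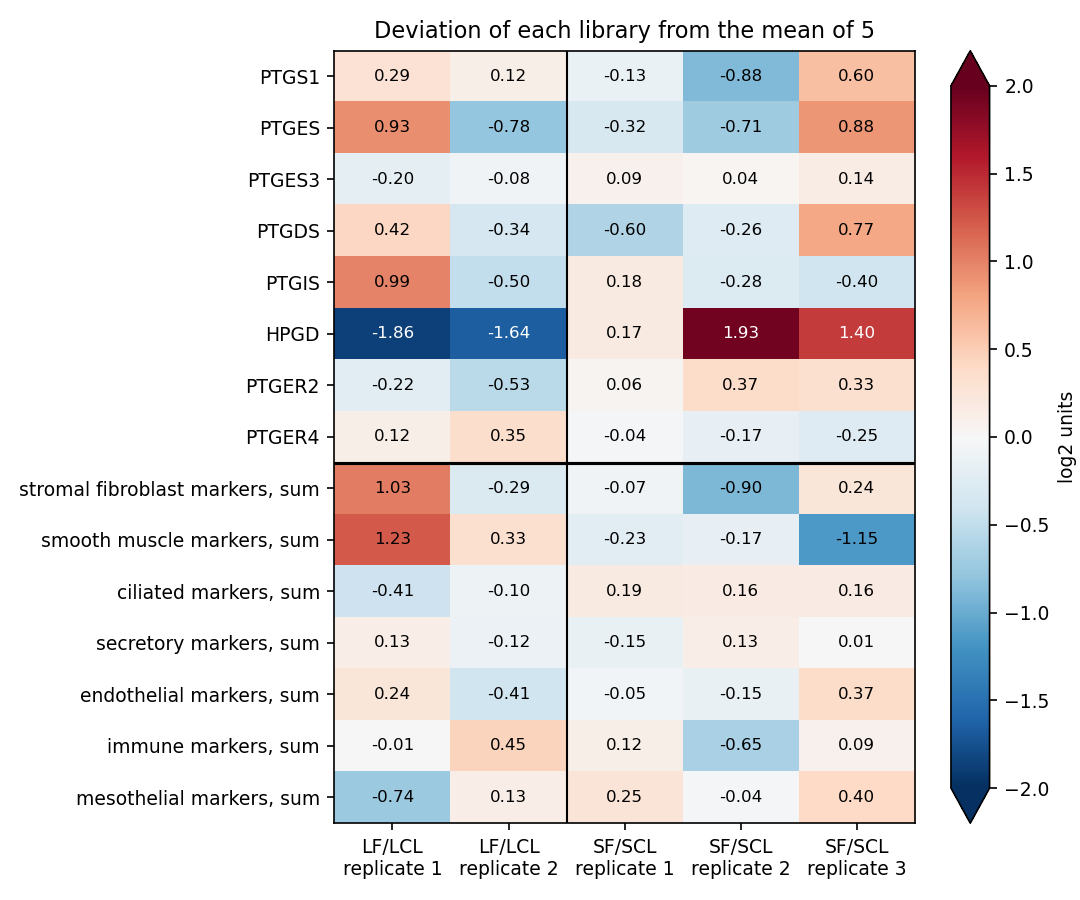
Deviation of each library (columns) from the mean of the 5 libraries, in log2 units, for the 8 genes (upper rows) and for the summed normalized reads of 7 marker lists (lower rows); the colour scale runs from -2 to 2. PTGES reaches 0.93 and 0.88 in LF/LCL replicate 1 and SF/SCL replicate 3, where stromal fibroblast markers reach 1.03 and 0.24, while HPGD is negative in both LF/LCL libraries and positive in all 3 SF/SCL libraries.

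PTGES3 behaved differently from the other synthesis genes. It encodes a cytosolic prostaglandin E synthase that is also a co-chaperone of steroid receptor complexes. It had 6549 and 7118 normalized reads in LF/LCL, against 7962, 7716 and 8287 in SF/SCL. Every LF/LCL library lay below every SF/SCL library, though by little. The means were 6833 ± 402.6 (SD, n = 2) and 7988 ± 286.6 (SD, n = 3), with a log2 fold change of -0.23 ± 0.10 (SE) and an interval from -0.47 to 0.02. The limma adjusted p was 0.464 (unadjusted p 0.0649). Within groups PTGES3 was among the steadiest of all genes, with a residual SD at percentile 5.98. That rank was not matched for read number, and counting error is small in a gene with so many reads. Only uniquely mapped reads were counted, so reads shared with any near-identical copy would be missing from this value, and the strand and overlap of genes were not examined.

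HPGD, the NAD-dependent dehydrogenase that carries out the first step of prostaglandin inactivation, separated the groups most. It had 28.1 and 32.9 normalized reads in LF/LCL, against 118.5, 403.3 and 278.0 in SF/SCL. Both LF/LCL libraries were close together and well below all SF/SCL libraries, which themselves differed by more than 3-fold. The means were 30.5 ± 3.37 (SD, n = 2) and 266.6 ± 142.8 (SD, n = 3).

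Counting error in HPGD was smaller than the gap between the groups. The LF/LCL values rest on 24 and 34 reads, and the SF/SCL values on 114, 519 and 259. The exact Poisson 95% intervals of the nearest libraries, up to 46.0 normalized reads in LF/LCL replicate 2 and from 97.8 in SF/SCL replicate 1, did not meet, while those of the 2 LF/LCL libraries overlapped. Within SF/SCL the coefficient of variation was 53.5%, where counting alone gives 5.80%.

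The log2 fold change of HPGD was -2.92 ± 0.52 (SE), with a 95% confidence interval from -4.20 to -1.64. Its limma adjusted p was 0.207 and its unadjusted p 0.00135. Count-based tests on the reads recovered from the table were divided. The edgeR quasi-likelihood test gave an adjusted p of 0.227, in a fit that called 0% of all genes. DESeq2 gave an adjusted p of 5.62e-06 (it called 1.5% of all genes lower and 1.38% higher in LF/LCL), and the edgeR exact test gave 0.000239 (0.961% of all genes lower). HPGD was the only one of the 8 genes called by either. Leaving out each library in turn kept the log2 fold change between -3.42 and -2.54, with limma adjusted p from 0.164 to 0.466.

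The summed ciliated markers were 1.33 times higher in SF/SCL than in LF/LCL, the summed secretory markers 0.993 times and the summed mesothelial markers 1.37 times, against the 8.73 times of HPGD. Single tested ciliated markers ran from 1.23 times (CAPS) to 1.81 times (SNTN). The mesothelial sum was 9299 in LF/LCL replicate 1, while LF/LCL replicate 2, at 17045, lay inside the SF/SCL range of 15078.5 to 20519.3. Single tested mesothelial markers ran from 0.855 times (LRRN4) to 1.79 times (MSLN) higher in SF/SCL, with WT1, a large part of the sum, at 1.03 times. Most of the secretory sum was OVGP1, and other members differed, with WFDC2 3.19 times and PAX8 1.53 times higher in LF/LCL and 3 of the 5 at an unadjusted limma p under 0.05. The summed smooth muscle markers were 2.47 times higher in LF/LCL. The part of these lists in the HPGD difference was not tested.

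The receptors followed. PTGER2, which couples prostaglandin E to cyclic AMP, had 85.6 and 68.7 normalized reads in LF/LCL, against 104.0, 129.0 and 125.6 in SF/SCL. All LF/LCL values were below all SF/SCL values. The means were 77.2 ± 11.9 (SD, n = 2) and 119.5 ± 13.6 (SD, n = 3), with a log2 fold change of -0.63 ± 0.26 (SE). The interval ran from -1.26 to 0.00, with an unadjusted p of 0.0506 and a limma adjusted p of 0.437. Its spread in each group, 15.5% and 11.4%, was little above the 11.8% and 8.85% that counting alone gives.

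PTGER4, the other receptor that raises cyclic AMP, differed the opposite way. It had 1914 and 2244 normalized reads in LF/LCL, against 1712, 1568 and 1478 in SF/SCL. Again no library of a group reached the range of the other, now with LF/LCL above. The means were 2079 ± 233.1 (SD, n = 2) and 1586 ± 118.3 (SD, n = 3), with a log2 fold change of 0.39 ± 0.12 (SE) and an interval from 0.09 to 0.68. The unadjusted limma p was 0.0177, or 0.120 without LF/LCL replicate 2, and the adjusted p was 0.345.

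Ratios of reads within a library do not depend on how the libraries were scaled, and pairs of genes were set against each other in this way. These pairs were chosen after their values were seen and are given without a test. PTGER4 had 2236 and 3265 reads per 100 reads of PTGER2 in LF/LCL, against 1647, 1216 and 1177 in SF/SCL. Set against PTGES3, itself somewhat lower in LF/LCL, PTGER4 had 29.2 and 31.5 reads per 100 in LF/LCL, against 21.5, 20.3 and 17.8 in SF/SCL. HPGD had 0.430 and 0.462 reads per 100 of PTGES3 in LF/LCL, against 1.49, 5.23 and 3.35 in SF/SCL. HPGD had 32.9 and 47.9 reads per 100 of PTGER2 in LF/LCL, against 114, 312.7 and 221.4 in SF/SCL. In these 4 of the 7 ratios computed the groups were apart. They use only HPGD, PTGER2, PTGER4 and PTGES3, whose groups were already apart, so they add no separate evidence. For PTGER4 against PTGER2 or PTGES3, which differed in the opposite direction, the separation was fixed by arithmetic. PTGS1 had 1.38 and 1.13 reads per 100 of PTGES3 in LF/LCL, against 0.849, 0.514 and 1.36 in SF/SCL, and the groups overlapped. They also overlapped for PTGIS per 100 of PTGES3 (6.02 and 18.3 in LF/LCL, from 5.54 to 8.62 in SF/SCL) and for PTGER3 per 100 of PTGER4 (up to 3.86 in LF/LCL, from 1.88 to 13.5 in SF/SCL). As gene length differs, the ratios compare libraries, not the levels of the paired genes.

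**Figure D3:**
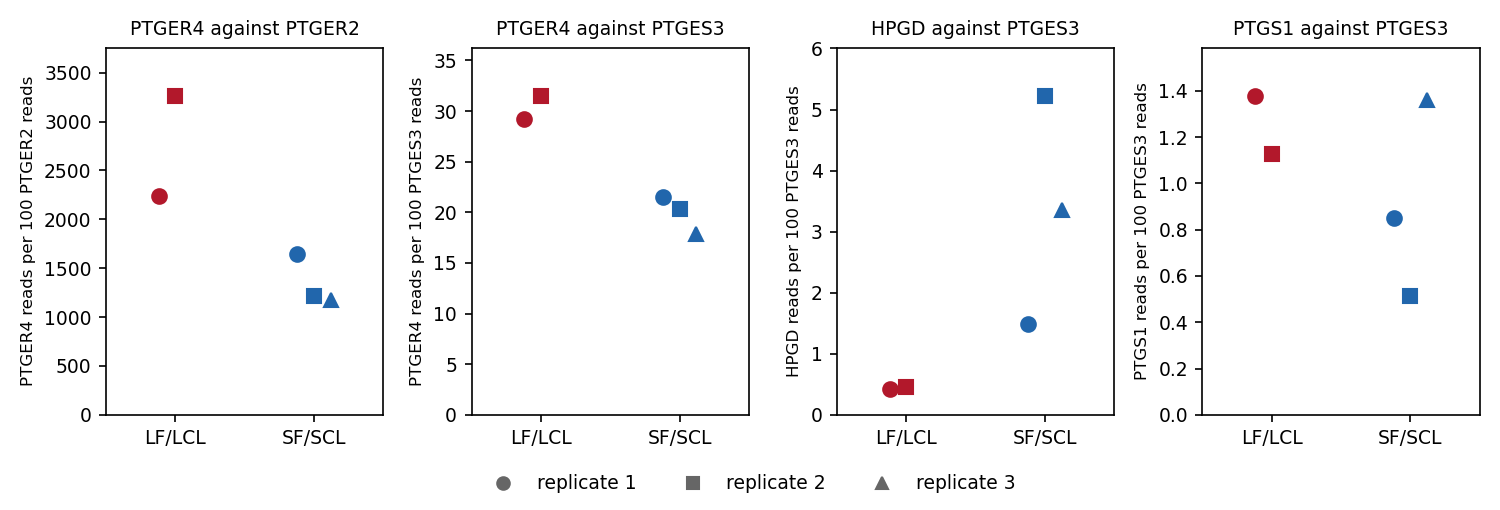
Reads of a gene per 100 reads of a second gene in the same library (y axes, linear from 0), by group, with a symbol for each library. PTGER4 against PTGER2 and against PTGES3 is higher in both LF/LCL libraries than in the 3 SF/SCL libraries, HPGD against PTGES3 is lower in both, and PTGS1 against PTGES3 overlaps between the groups.

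The rest of the pathway was read from a list of 35 other genes, of which 31 were matched by symbol in 33 rows, and 27 of these were tested. AKR1C3, CBR1, PTGER1 and ALOX15 were not matched and were not analysed here. With limma, 0 of the 27 had an adjusted p under 0.05, and DESeq2 and both edgeR tests also called 0. An unadjusted p under 0.05 was found for 2 that were higher in LF/LCL (7.41%) and 1 that was lower (3.7%), close to the shares of all genes given above. The median log2 fold change was 0.21, with 19 entries higher and 8 lower in LF/LCL. The groups did not overlap in 4 entries higher in LF/LCL (14.8%) and 2 lower (7.41%), no more than in all genes. The 4 were SLCO2A1, PTGFRN, PLA2G12A and PTGES2, and the 2 were LTA4H and FAM213B, a prostaglandin F synthase. By role, 6 of 7 receptors and receptor partners were higher in LF/LCL (median 0.62), as were 2 of 2 transporters. So were 4 of 5 synthases and reductases, 2 of 3 breakdown genes and 2 of 4 genes of arachidonate release. The lipoxygenase branch was divided, 3 to 3. Among the 6 receptors and partners, PTGIR (1 to 8 reads per library), PTGDR (6 to 15) and TBXA2R (7 to 25) had few reads and overlapping groups. Over all genes 8032 of 15815 were higher, and of the 7 receptors and partners 1 had an unadjusted p under 0.05, with a lowest limma adjusted p of 0.418. Without LF/LCL replicate 2, 5 entries of the list had an unadjusted p under 0.05 in place of 3, while the count over all genes went from 1819 to 1559.

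SLCO2A1, the carrier that takes prostaglandins into the cell where HPGD acts, had 76.2 and 53.2 normalized reads in LF/LCL, against 30.2, 24.9 and 30.0 in SF/SCL. It was higher in both LF/LCL libraries, opposite to HPGD. The log2 fold change was 1.15 ± 0.37 (SE), with an unadjusted p of 0.0197 and a limma adjusted p of 0.353. PTGFRN, a membrane protein that binds the prostaglandin F receptor, had 864.3 and 512.0 in LF/LCL, against 386.8, 427.4 and 487.2 in SF/SCL. Its log2 fold change was 0.62 ± 0.24 (SE), with a limma adjusted p of 0.418. LTA4H, which makes leukotriene B in the lipoxygenase branch of arachidonate metabolism, had 1016 and 947.6 in LF/LCL, against 1386, 1251 and 1732 in SF/SCL. Its log2 fold change was -0.56 ± 0.16 (SE), with a limma adjusted p of 0.314.

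Of the genes upstream of the cyclooxygenases, PLA2G12A, a secreted phospholipase, had a log2 fold change of 0.26 ± 0.12 (SE, limma adjusted p 0.485). PLA2G4A, the cytosolic phospholipase that releases arachidonate, was named after its values were seen and had a log2 fold change of 0.10 ± 0.25 (SE). PTGES2, a further prostaglandin E synthase, had a log2 fold change of 0.32 ± 0.16 (SE, limma adjusted p 0.495). With it, the 3 prostaglandin E synthases had log2 fold changes of -0.23 (PTGES3), 0.13 (PTGES) and 0.32 (PTGES2). PPARG, a nuclear receptor for prostaglandin D products, ranged from 11.7 to 100.7 normalized reads, with a log2 fold change of 1.30 ± 0.74 (SE, limma adjusted p 0.556).

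A few other genes completed the picture and were chosen after their values were seen. PTGER3, the prostaglandin E receptor that lowers cyclic AMP, had 73.9 and 35.8 normalized reads in LF/LCL, against 167.4, 29.5 and 199.6 in SF/SCL. Its residual SD was at percentile 96.8 of all genes, and SF/SCL replicate 2 fell below both LF/LCL libraries. PTGR1 and PTGR2 are reductases that act after HPGD. PTGR1 had 917.1 normalized reads in LF/LCL replicate 1 and from 234.2 to 345.6 in the other 4 libraries, and PTGR2 had a log2 fold change of 0.22 ± 0.15 (SE). HPGDS, the prostaglandin D synthase of blood cells, had at most 5.81 normalized reads in any library and was not tested. Of the 4 mast cell markers, MS4A2 and HDC had at most 3.87, CPA3 ranged from 0 in SF/SCL replicate 2 to 63.3 in SF/SCL replicate 3, and KIT ranged from 3218 to 4691.

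**Figure D4:**
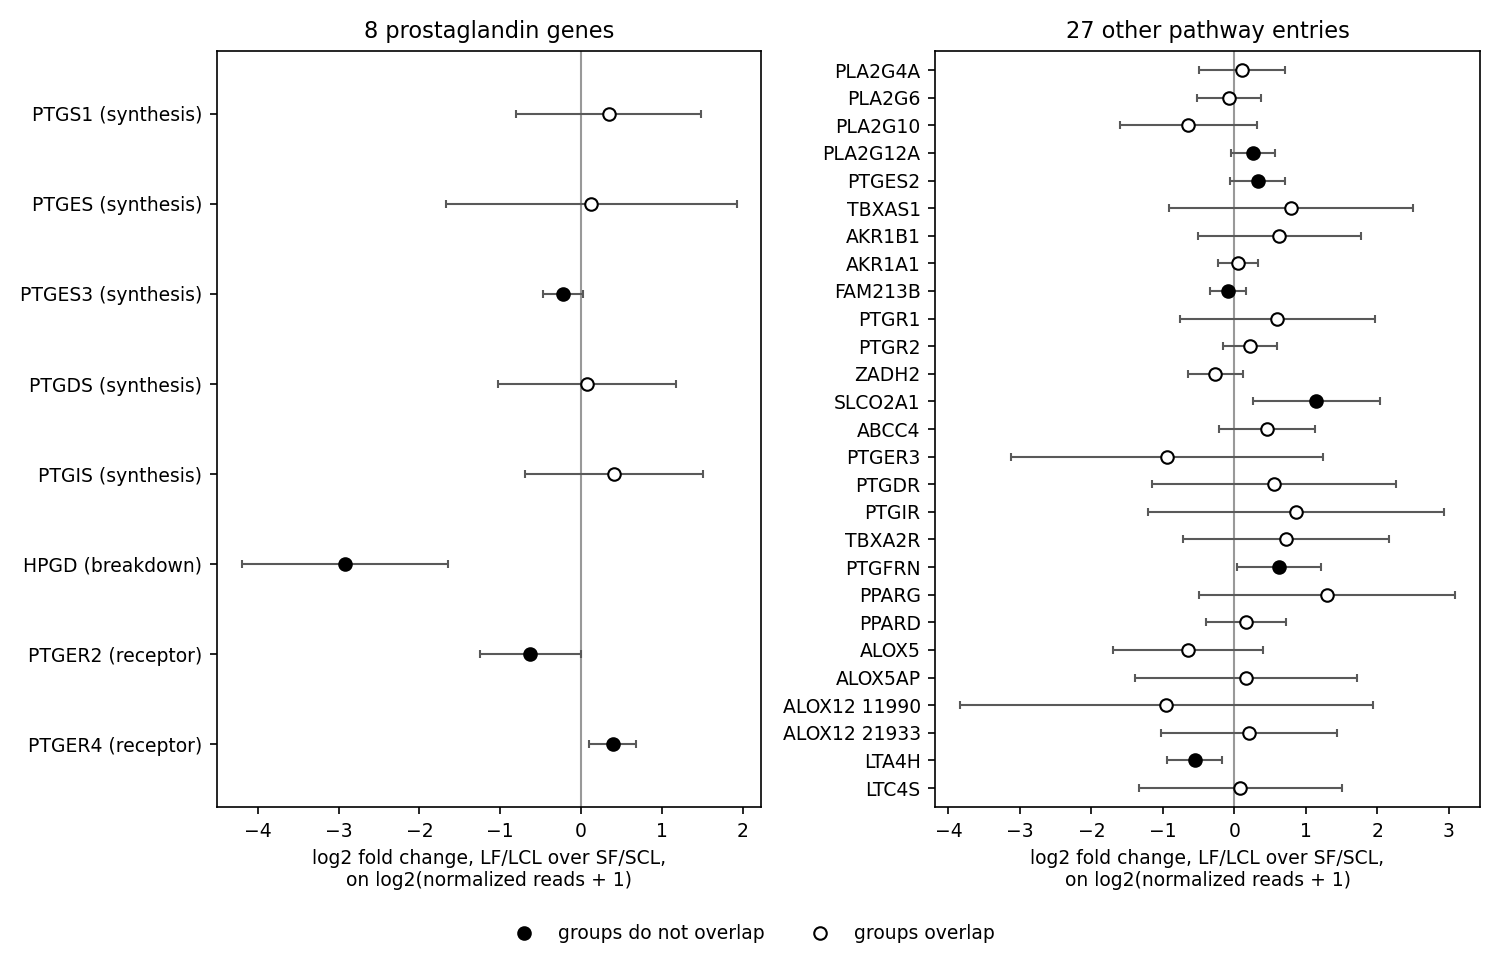
Log2 fold change, LF/LCL over SF/SCL, on the log2(normalized reads + 1) scale (x axes) for the 8 genes (left) and the 27 other tested entries of the pathway (right), with limma 95% confidence intervals; filled circles mark entries whose groups do not overlap, and the digits after ALOX12 are the last of each entry's Ensembl identifier. HPGD stands at -2.92 with an interval that ends at -1.64, and most other intervals include 0.

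For the gene with the most normalized reads in each role, the 3 genes with the most similar profile over the 5 libraries were looked up among 11951 other genes with a symbol and a mean of at least 50 normalized reads. Likeness was measured as the root mean square difference of log2 values, each centred on its own mean. For PTGES3 these were JTB, UQCR11 and NOC3L, at 0.0145, 0.0188 and 0.0214 log2 units. For PTGER4 they were PCYOX1L, TES and DGKA, at 0.0196, 0.0273 and 0.0347. HPGD had no match as near, but the measure grows with a gene's own spread, so its distances are not comparable with those above. Centred values of HPGD ran from -1.86 to 1.93, those of PTGES3 from -0.20 to 0.14 and those of PTGER4 from -0.25 to 0.35. The genes closest to HPGD were F5, FOXRED2 and HECW2, at 0.379, 0.447 and 0.453. FOXRED2 had 217.0 and 532.4 normalized reads in LF/LCL, against 2221, 5519 and 3314 in SF/SCL, and F5 had 23.5 and 54.2, against 197.5, 423.6 and 376.7. With 5 libraries, many genes share a profile, and these are descriptions only.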

How the data were processed

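PolyA RNA libraries of 5 ampulla samples were sequenced as read pairs of 101 bases. Per the labels and methods, the authors filtered reads with seqyClean, aligned them with TopHat2 2.0.8 and Bowtie2 2.1.0 to the masked UMD cattle assembly, counted uniquely mapped reads per Ensembl gene with HTSeq, and divided each count by a DESeq 1.12.1 size factor. Use of strand was not given in the sources used here. The deposited values are this normalized signal. A further LF/LCL library had been dropped by the authors for few reads.

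Each value was a whole multiple of a step per library, within 0.1 read for 100% of nonzero values, which gave back whole reads. Groups came from the sample titles, and replicates were numbered in accession order. Genes with a mean over 5 were tested with limma 3.58.1 (trend and robust) on log2(value + 1), two-sided, without covariates, and p-values were adjusted over all 15815 genes at a threshold of 0.05. A fold change on this scale understates that of low genes. The main limma fit, both edgeR tests and DESeq2 were also run on simulated data, with results not given here. The other settings named below were not. The edgeR 4.0.16 and DESeq2 1.42.0 tests on recovered reads, other pseudocounts, scalings and filters, and leaving out each library were alternatives. The genes and lists were chosen with earlier results of these data known. Named genes were all matched list members, the 6 other pathway genes with the smallest p, and the nearest profiles; others are stated. Marker lists were described only.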

Additional observations from a re-analysis of the deposited data

How the results depend on the processing

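With 2 libraries against 3, limma intervals were wide, and genes with few reads such as PTGES were further limited by counting. The count of 0 genes called among the 8 was also 0 in all 12 limma alternatives and in the edgeR quasi-likelihood test, and became 1 (HPGD) with DESeq2 and 1 with the edgeR exact test. The 2 genes at an unadjusted p under 0.05 became 4 with DESeq2 and 4 with library size scaling, in both of which PTGER2 and PTGES3 were added. They became 3, with PTGER2 added, when the mean also had to exceed the SD, and in limma without trend and robust. Over all genes that count was 1819, with 2013 under DESeq2 and 1885 under library size scaling, where 39.5% of them were higher in LF/LCL. With the SD filter it was 1784 of 15507 genes, and without trend and robust 1656. The cause was not tested. The median log2 fold change of the 8 genes, 0.10, lay between -0.32, when LF/LCL replicate 1 was left out, and 0.35 in the fits with 4 libraries, and was negative in 3 of those 5 fits, and the count of 3 other pathway genes at an unadjusted p under 0.05 ran from 2 to 5 (without LF/LCL replicate 2, where all genes gave 1559).

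HPGD, PTGER2, PTGER4 and PTGES3 kept their direction under all 15 alternatives. PTGDS turned to -0.00376 with both edgeR tests and -0.00416 with DESeq2. Without a library, PTGDS ran from -0.31 to 0.47, PTGES from -0.73 to 0.98, PTGIS from -0.33 to 1.15 and PTGS1 from -0.0351 (without SF/SCL replicate 2) to 0.71. PTGES and PTGDS were negative without LF/LCL replicate 1, SF/SCL replicate 1 or SF/SCL replicate 2. Without an LF/LCL library, the other is assumed to vary like the SF/SCL libraries.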
